A study of Mus musculus with 80 samples.

Results

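The collagen genes were described in muscle stem cells (MuSCs) of extraocular muscles (EOM), which move the eye, and of *Tibialis anterior* (TA), a limb muscle. Members were all genes whose symbol has the form of a collagen chain, *Col*, a number, the letter a and a number, which gave 43 of the 25899 genes in the table. They were sorted by the known assembly of the protein into 11 fibrillar chains, 8 basement membrane chains and 24 others. MuSCs came from male *Tg:Pax7-nGFP* littermates aged 7 or 7.6 weeks, on a mixed background of C57BL/6 and DBA2, in which the *Pax7* locus drives a nuclear GFP that served for cell sorting in every group. Cells sorted directly from EOM and from TA formed the 2 pre-graft groups, each library from 500 cells. For the post-graft groups, EOM or TA MuSCs of a donor were placed into TA muscles of an immunodeficient *Rag2-/-;γC-/-* host, which lacks T, B and NK cells and had been injured with cardiotoxin. GFP-positive cells were sorted again at day 21 by the labels. The results of the paper give a later day, and its methods give a range of weeks. The EOM and TA grafts of a donor lay in separate muscles of the same host. These libraries held the RNA of far fewer cells than those before grafting, and for some of them the labels and the study's own list give different numbers of cells. Of 40 RNA libraries, 30 passed the quality control of the study and were compared, 8 EOM and 8 TA pre-graft and 7 EOM and 7 TA post-graft.

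Collagens are helices of several chains, which may be copies of a single gene product or products of different genes. Fibrillar collagens I, III and V form the fibrils of the interstitial matrix, and type V chains sit within the fibrils and limit their width. Type IV collagen makes the sheet of the basal lamina, under which the quiescent MuSC lies against its myofibre, and collagens XV and XVIII are proteoglycans of that zone. Type VI collagen forms beaded filaments between lamina and interstitium. Type V and type VI collagen are known parts of the MuSC niche in limb muscle.

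The level of a gene is given as log2 RPM, its reads relative to the size of the library, as the authors deposited it, so a difference of 1 is a doubling. Passing libraries had 3326270 to 14402975 reads in all, of which 963432 to 4169357 on genes could be recovered. Before grafting, mitochondrial genes took 2.96% to 9.18% of the recovered reads in EOM with a median of 3.77%, and 3.47% to 28.8% in TA with a median of 13.6%. After it they took 5.59% to 67.6% in EOM and 8.73% to 81.1% in TA, and this share enters the scale of every other gene. The median of all genes tested lay at -0.30 for TA against EOM before grafting, at -1.09 for TA after against before grafting and at -1.48 for EOM after against before grafting, on the log2 scale. Differences are given beside these medians. A call required that limma gave an adjusted p below 0.05 together with a fold change of more than 1 on the log2 scale, in either direction. All 10 markers of MuSCs had reads in each group, and their summed level had a median of 16130 RPM in EOM and 17100 RPM in TA before grafting, 4234 RPM in EOM grafts and 3234 RPM in TA grafts. The lowest such sum was 229 RPM, in a TA graft.

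Start regions of 35 members were matched by symbol in the RefSeq table of mouse promoters (GRCm38.p6), and 4 are shown. They belong to the most read member (*Col3a1*), to 2 chains of type V collagen that differed between the muscles in their ratio (*Col5a1*, *Col5a3*) and to a member that was higher in grafts of both muscles (*Col8a1*). Each is the run of 250 bases before the start of the transcript, on the strand of the gene, and capitals mark the motifs searched on both strands: TATAAA, the TATA box, CCAAT, and GGGCGG, the GC box.
Col3a1, chr1:45311288-45311537, plus strand: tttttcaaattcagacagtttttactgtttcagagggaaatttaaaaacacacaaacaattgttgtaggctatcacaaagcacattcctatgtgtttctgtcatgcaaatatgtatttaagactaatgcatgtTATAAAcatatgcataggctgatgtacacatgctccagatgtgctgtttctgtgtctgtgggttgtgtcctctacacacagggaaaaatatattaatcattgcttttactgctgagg
Col5a1, chr2:27886175-27886424, plus strand: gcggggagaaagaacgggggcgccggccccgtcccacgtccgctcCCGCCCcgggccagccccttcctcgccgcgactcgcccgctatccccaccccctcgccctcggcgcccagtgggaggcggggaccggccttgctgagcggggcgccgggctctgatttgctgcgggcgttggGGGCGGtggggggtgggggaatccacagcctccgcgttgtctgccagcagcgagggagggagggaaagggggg
Col5a3, chr9:20815068-20815317, minus strand: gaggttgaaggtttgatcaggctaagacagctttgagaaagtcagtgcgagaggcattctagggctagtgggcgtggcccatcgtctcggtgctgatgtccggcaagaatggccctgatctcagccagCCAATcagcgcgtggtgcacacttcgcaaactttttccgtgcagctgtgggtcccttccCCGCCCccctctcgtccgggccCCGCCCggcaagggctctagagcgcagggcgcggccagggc
Col8a1, chr16:57754738-57754987, minus strand: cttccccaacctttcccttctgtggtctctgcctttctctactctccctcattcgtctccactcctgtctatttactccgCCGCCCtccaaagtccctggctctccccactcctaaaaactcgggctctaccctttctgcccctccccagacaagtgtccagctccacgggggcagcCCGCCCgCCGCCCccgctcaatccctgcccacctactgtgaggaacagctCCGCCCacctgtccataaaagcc
*Col3a1* held 1 TATA box and neither of the other motifs. *Col5a3* held 1 CCAAT and 2 GC boxes, *Col5a1* held 2 GC boxes and no CCAAT, and *Col8a1* held 4 GC boxes. Of all 32851 windows of this length in the table, 12.37% held TATAAA, 33.85% held CCAAT and 32.74% held GGGCGG. Of the 35 members with a window, counted at 1 start each, 5 held TATAAA, 12 held CCAAT and 21 held GGGCGG.

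Some members lie side by side. *Col4a1* and *Col4a2* are transcribed away from each other on chromosome 8, and in RefSeq their transcripts start within the same 22 bases. That stretch is shown on the strand of *Col4a2*, in capitals within 4 flanking bases on either side.
Col4a2 and Col4a1 starts, chr8:11312801-11312830, plus strand: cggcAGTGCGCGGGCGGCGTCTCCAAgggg
In the table *Col4a1* spans 11198423 to 11312826 on the minus strand and *Col4a2* spans 11312805 to 11449287 on the plus strand of chromosome 8. *Col4a4* and *Col4a3*, with 71 bases between them, and *Col4a6* and *Col4a5*, with 1308 bases between them, are paired in the same way. *Col3a1* and *Col5a2* lie tail to tail with 24614 bases between them on chromosome 1, and *Col6a2* and *Col6a1* lie in the same direction with 85161 bases between them on chromosome 10. The counting did not use the strand, so reads in bases that 2 genes share could go to either of them. The exons of *Col4a1* and *Col4a2* share 22 bases, those of *Col5a1* share 99 and 113 bases with 2 transcripts of the opposite strand, those of *Col15a1* share 14 bases with 1 such transcript, and those of *Col4a3* share 563 bases.

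Before grafting, collagen reads came mostly from a few chains. The summed level of all members was 1916 to 3140 RPM in EOM with a median of 2655, and 1521 to 4036 RPM in TA with a median of 2674, so the groups overlapped. A library had reads on 24 to 32 members in EOM and on 19 to 33 in TA. Fibrillar chains took a median of 51.2% of the collagen reads in EOM (40.8% to 55.9%) and 55.9% in TA (49.3% to 59.98%). Basement membrane chains took 19.1% in EOM (15.8% to 26.7%) and 22.8% in TA (20.1% to 34.7%), and the other chains took 29.97% in EOM (21.7% to 40.4%) and 19.8% in TA (16.1% to 24.2%).

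**Figure D1:**
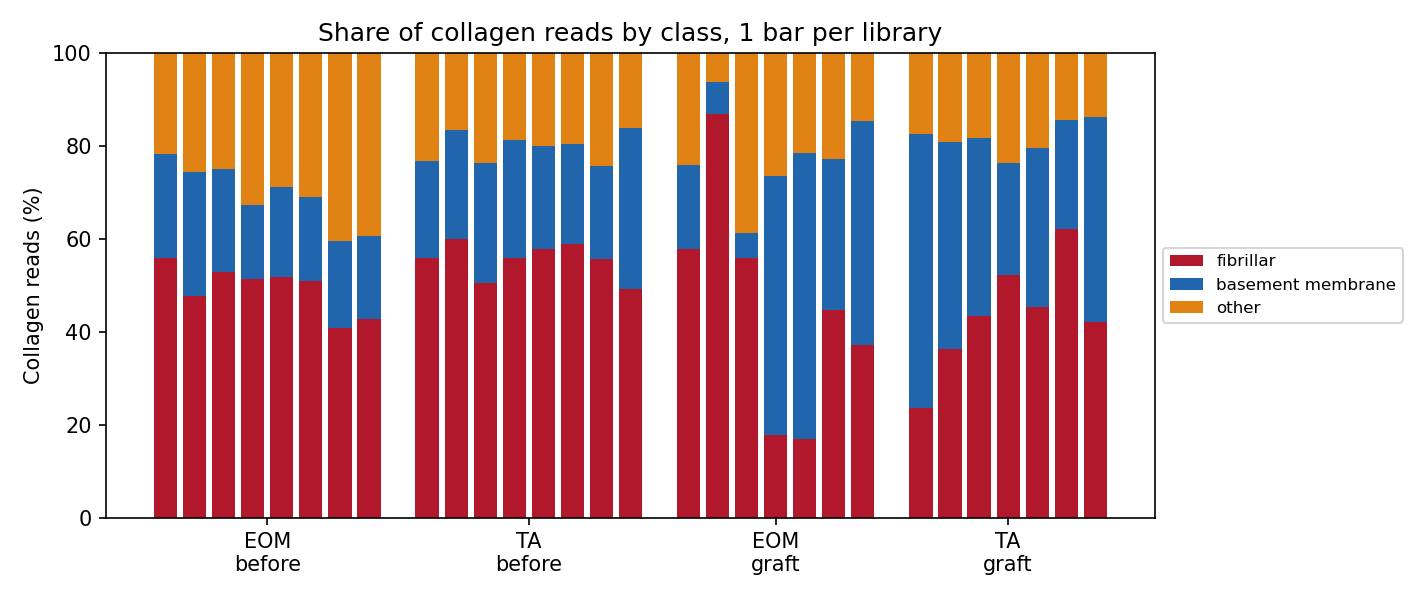
Share of the collagen reads of each library (y axis, percent) taken by fibrillar, basement membrane and other collagen genes, 1 bar per library, grouped by muscle and stage. The fibrillar share runs from 40.8% to 55.9% among the 8 EOM libraries before grafting and from 17.0% to 87.0% among the 7 EOM grafts.

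Compared per length, as RPM per kilobase of exon, *Col6a1*, an obligate chain of type VI collagen, had the highest median in EOM (119) and ranked 2 in TA (50.8). *Col3a1*, the single chain of type III collagen, followed in EOM (85.4) and led in TA (75.8). *Col15a1* ranked 3 in EOM (32.9) and 10 in TA (8.18). *Col4a1* and *Col4a2* ranked 4 and 8 in EOM (22.5 and 11.9) and 3 and 4 in TA (40.2 and 30.7). The type V chains *Col5a2*, *Col5a1* and *Col5a3* had medians of 16.4, 12.2 and 7.39 in EOM and of 22.5, 9.72 and 17.9 in TA. *Col6a3*, the usual partner of *Col6a1* and *Col6a2* in type VI collagen, was near the floor in both muscles (0.17 in EOM and 0.31 in TA).

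Between TA and EOM before grafting, 29 members were tested, and 7 were called. *Col4a2*, *Col5a3* and *Col19a1* were higher in TA (3 of 29 beside 1.26% of all genes tested), and *Col6a1*, *Col6a2*, *Col15a1* and *Col16a1* were higher in EOM (4 of 29 beside 3.31%). By class, 1 of 8 fibrillar chains tested was higher in TA, 1 of 7 basement membrane chains was higher in TA and 1 in EOM, and of 14 others 1 was higher in TA and 3 in EOM. The median of the members was -0.17 and that of all genes tested was -0.30. With values centred on the library median 4 were higher in TA (beside 1.77%) and 3 lower (beside 2.08%), and DESeq2 called 5 higher (beside 2.44%) and 3 lower (beside 1.96%). The call of each of these 7 held without any one of the 16 libraries. It also held with values centred on the library median, with scaling without mitochondrial genes, with edgeR and with DESeq2 for 6 of them. The exception was *Col6a1*, whose fold change fell below the limit in these 4 settings.

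*Col4a2*, an obligate chain of the type IV collagen of the basal lamina, had 5.69, 6.30 and 7.28 as its lowest, median and highest log2 RPM in EOM and 6.75, 7.63 and 8.37 in TA. Of the EOM libraries, 1 reached into the range of TA. It was higher in TA by 1.23 ± 0.24 on the log2 scale (SE, adjusted p = 0.00212). *Col4a1*, its partner in the same trimer, had 6.69, 7.39 and 8.36 in EOM and 7.33, 8.22 and 8.94 in TA. The groups overlapped, and the difference of 0.73 ± 0.25 was not called (adjusted p = 0.0723). *Col18a1*, the source of endostatin, had 3.40, 5.17 and 6.06 in EOM and 4.99, 5.92 and 6.58 in TA. Its difference of 0.88 ± 0.33 was not called (adjusted p = 0.1) but was called as higher in TA with centred values, without mitochondrial genes, with DESeq2 and with the donor as block.

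*Col5a3*, a less common chain of type V collagen, had 5.14, 5.63 and 5.97 in EOM and 5.67, 6.93 and 7.77 in TA. It was higher in TA by 1.32 ± 0.25 (adjusted p = 0.00139), with 1 TA library inside the range of EOM. The major fibrillar chains were not called. *Col3a1* had 8.72, 9.71 and 10.05 in EOM and 8.94, 9.54 and 10.77 in TA, a difference of 0.28 ± 0.25 (adjusted p = 0.507). *Col5a2* differed by 0.26 ± 0.17 (adjusted p = 0.341) and *Col5a1* by -0.48 ± 0.24 (adjusted p = 0.223). *Col1a2* and *Col1a1*, the chains of type I collagen, had medians of 6.89 and 3.14 in EOM and of 5.15 and -0.18 in TA. *Col1a1* was without a read in 4 of 8 TA libraries and reached 7.11 in another, and neither chain was called (*Col1a2*, -1.68 ± 0.54, adjusted p = 0.0596, and *Col1a1*, -2.44 ± 1.14, adjusted p = 0.187).

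*Col19a1*, a member of the group that binds to the surface of fibrils (FACIT), had 3.65, 4.68 and 5.40 in EOM and 5.50, 6.62 and 8.12 in TA. The groups did not overlap, and it was higher in TA by 2.16 ± 0.34 (adjusted p = 0.000181), the highest fold change of the members called as higher in TA. *Col16a1*, another FACIT member, had 4.26, 4.96 and 5.85 in EOM and -1.14, 2.98 and 4.08 in TA, again without overlap. The difference was -2.43 ± 0.58 (adjusted p = 0.011), and its lowest TA library had no read. *Col15a1*, which spans basal lamina and fibrils, had 6.73, 7.70 and 8.27 in EOM and 4.77, 5.69 and 7.06 in TA, a difference of -1.89 ± 0.31 (adjusted p = 0.000293). *Col6a1* had 8.48, 9.03 and 9.26 in EOM and 7.26, 7.79 and 8.49 in TA, a difference of -1.12 ± 0.18 (adjusted p = 0.000188) and of -0.88 with centred values. *Col6a2* had 6.19, 7.10 and 7.34 in EOM and 3.01, 5.47 and 6.56 in TA, a difference of -1.77 ± 0.37 (adjusted p = 0.00332). Single libraries of TA reached into the range of EOM for *Col15a1*, *Col6a1* and *Col6a2*.

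**Figure D2:**
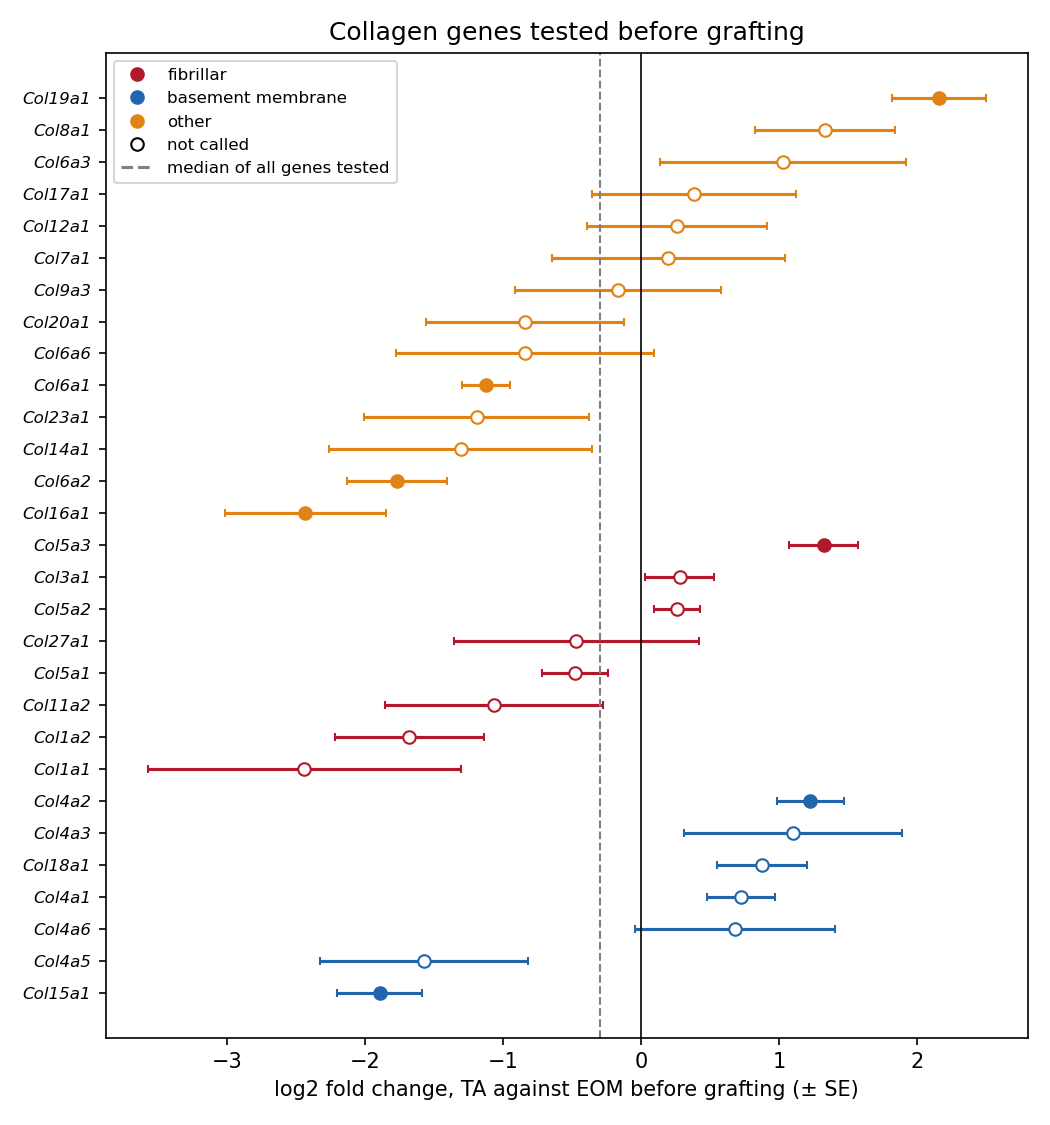
Log2 fold change of TA against EOM before grafting (x axis, with SE) for the 29 collagen genes tested, coloured by class, filled where called, with the median of all genes tested as a dashed line. *Col19a1*, *Col5a3* and *Col4a2* are filled to the right and *Col16a1*, *Col15a1*, *Col6a2* and *Col6a1* to the left.

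The 2 experiments gave the same direction for each of the 7. In Experiment 1, with 3 EOM and 2 TA libraries, the differences were 3.30 for *Col19a1*, 1.71 for *Col5a3*, 0.87 for *Col4a2*, -0.51 for *Col6a1*, -0.94 for *Col6a2*, -1.72 for *Col15a1* and -1.99 for *Col16a1*, with no test of their own. In Experiment 2 alone, *Col16a1* and *Col5a3* were no longer called. With the donor mouse as block, *Col8a1* and *Col18a1* were also called as higher in TA, which gave 5 higher (beside 2.0%) and 4 lower (beside 3.33%). With all 20 pre-graft libraries, including 4 that failed the quality control, 0 members were called higher in TA (beside 0.194%) and 3 stayed called as higher in EOM (*Col6a1*, *Col6a2* and *Col15a1*, beside 1.16%).

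Markers of other cells differed in level between the pre-graft libraries. The summed level of 8 Schwann cell markers, of which all had reads, was 31.3 to 2667 RPM in EOM with a median of 553, and 9.29 to 435.8 RPM in TA with a median of 20.1. The sum of 8 myofibre markers had medians of 28.3 RPM in EOM and 134.8 RPM in TA, and that of 8 macrophage markers reached 1497 RPM in EOM and 32.5 RPM in TA, with medians of 32.1 and 27.3 RPM. That of 10 endothelial markers was 102 to 887 RPM in EOM with a median of 258, and 19.7 to 2799 RPM in TA with a median of 485. In EOM this sum was led by *Tek*, with medians of 156 RPM in EOM and 65.1 RPM in TA. Each of the other endothelial markers had a higher median in TA. *Pecam1* had medians of 5.45 RPM in EOM and 62.4 RPM in TA, and *Cldn5* of 2.89 and 25.8 RPM. The sum of 12 fibroblast markers was 2617 to 6149 RPM in EOM with a median of 4414, and 2582 to 5162 RPM in TA with a median of 3181, led by *Dpt* in EOM (median 2343 RPM) and by *Gsn* in TA (median 1676 RPM). Among the other fibroblast markers, *Pdgfra*, which defines fibro-adipogenic progenitors, reached 6.57 RPM in EOM and 2.1 RPM in TA, while *Dcn* reached 559 RPM in EOM and 1013 RPM in TA, *Pi16* reached 491 RPM in EOM and *Smoc2* reached 165 RPM in TA. The part of these cells in the differences above was not tested.

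The ratio of partner chains within a library does not depend on the scale of that library where both chains have reads. A chain without a read stands at 0.9 reads, so its ratio depends on depth, as for *Col1a1* in 4 of 8 TA libraries and *Col6a3* in 2 of 8 TA and 3 of 8 EOM libraries. In all, 8 pairs were compared between the muscles by an exact permutation test, two-sided, with adjustment over the 8 pairs. The ratio differed for 3 pairs, all of them higher in TA and with reads of both chains in every library. The log2 ratio of *Col4a2* over *Col4a1* was -0.61 ± 0.34 (SD, n = 8) in TA and -1.11 ± 0.33 (SD, n = 8) in EOM, a difference of 0.50 by exact permutation (adjusted p = 0.0261). The ratio of *Col5a3* over *Col5a1* was 0.64 ± 0.96 in TA and -1.16 ± 0.38 in EOM, a difference of 1.80 by exact permutation (adjusted p = 0.00373), so *Col5a3* had more reads than *Col5a1* in the median TA library and fewer in each EOM library. The ratio of *Col5a2* over *Col5a1* was 1.38 ± 0.53 in TA and 0.64 ± 0.38 in EOM, a difference of 0.74 by exact permutation (adjusted p = 0.0261). The count of 3 became 1 without the TA library of mouse 2 or of mouse 5 of Experiment 2 and 5 without that of mouse 6. With all 20 pre-graft libraries the difference of *Col4a2* over *Col4a1* was 0.28 and did not pass (adjusted p = 0.39, permutation test), while both type V ratios did. That setting includes the nearly empty EOM library of 302 recovered reads, where 2 chains without a read give a log2 ratio of 0. *Col5a2* over *Col3a1*, 2 chains encoded side by side, was -2.16 ± 0.56 in TA and -2.14 ± 0.46 in EOM by the same exact test (adjusted p = 0.931). *Col6a2* over *Col6a1* was -2.65 ± 1.01 in TA and -2.0 ± 0.21 in EOM by exact permutation (adjusted p = 0.0825). *Col6a3* over *Col6a1*, *Col4a6* over *Col4a5* and *Col1a2* over *Col1a1* had adjusted p of 0.0806, 0.0662 and 0.409 by exact permutation. Within the 7 donors that gave both muscles, the exact sign-flip test cannot go below p = 0.0156. *Col5a3* over *Col5a1* was higher in TA in 7 of 7 donors and the other 2 ratios that differed were higher in 6 of 7, and no pair passed after adjustment (adjusted p = 0.125 for each of these 3 by the exact test).

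After grafting, TA libraries were compared with TA libraries before it. Of 31 members tested, 4 were called higher (*Col1a1*, *Col1a2*, *Col6a3* and *Col8a1*, beside 3.79% of all genes tested) and 7 lower (*Col3a1*, *Col5a1*, *Col5a2*, *Col5a3*, *Col6a1*, *Col7a1* and *Col19a1*, beside 30.9%). With values centred on the library median, 7 were higher (beside 7.67%) and 3 lower (beside 5.68%), and edgeR called 5 higher (beside 5.98%) and 2 lower (beside 3.07%). DESeq2 called 9 higher (beside 8.8%) and 3 lower (beside 4.17%). Scaling without mitochondrial genes gave 6 higher (beside 6.93%) and 4 lower (beside 7.18%). The 5 scalings were the deposited one, centring, scaling without mitochondrial genes, edgeR and DESeq2. The calls that held under all of them were *Col1a2*, *Col6a3* and *Col8a1* as higher and *Col6a1* as lower, beside *Col7a1*, which passed the filter on low values through the pre-graft libraries alone and so had to differ. In bulk samples such as these, fewer cells of a type and less RNA per cell cannot be told apart.

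*Col6a1* had 7.26, 7.79 and 8.49 as its lowest, median and highest log2 RPM in TA before grafting and 2.52, 4.61 and 6.33 in TA grafts, and the groups did not overlap. Its change was -3.36 ± 0.50 (adjusted p = 0.000267), or -2.27 relative to the median of all genes tested. *Col6a3*, its partner in type VI collagen, had -1.14, 1.88 and 4.42 before and 4.23, 5.86 and 6.63 after, with a change of 4.08 ± 0.80 (adjusted p = 0.00137). All 7 grafts had reads of *Col6a3* (33 to 205), while 6 of 8 libraries had them before grafting (0 to 51). *Col6a2*, the remaining obligate chain, had 3.01, 5.47 and 6.56 before and 1.66, 3.87 and 5.81 after, and its change of -1.35 ± 0.63 was not called (adjusted p = 0.0912).

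*Col8a1*, a short network-forming chain known from vessel walls, had 3.79, 4.84 and 7.00 before grafting and 4.97, 6.93 and 7.86 after it in TA. The groups overlapped, and the change was 1.65 ± 0.51 (adjusted p = 0.0176). *Col1a2* had 3.22, 5.15 and 7.86 before and 6.27, 7.60 and 9.49 after, a change of 2.28 ± 0.62 (adjusted p = 0.009). *Col1a1* had -1.14, -0.18 and 7.11 before and 4.61, 6.12 and 7.5 after, a change of 4.74 ± 1.04 (adjusted p = 0.00277). It was called neither with edgeR (adjusted p = 0.13) nor with DESeq2. The TA library of mouse 2 of Experiment 2 held most of its reads before grafting (329). That of mouse 4 of Experiment 1 held 24, and that of mouse 6 of Experiment 2 held 21. The highest values of *Col1a1* and *Col1a2* among TA grafts were in that of mouse 6 of Experiment 2. It also had the highest endothelial and tenocyte marker sums of these grafts (7615 and 1065 RPM). The highest fibroblast sum of TA grafts (6142 RPM) was in that of mouse 2 of Experiment 2. There *Col1a1* had 4.81 and *Col1a2* had 7.38 log2 RPM. The highest pericyte and smooth muscle sum (6460.5 RPM) was in the TA graft of mouse 3 of Experiment 1. Before grafting both chains were highest in the TA library of mouse 2 of Experiment 2. Its fibroblast, endothelial and tenocyte marker sums were the highest of its group (5162, 2799 and 49.1 RPM). The highest pericyte and smooth muscle sum of that group (1733 RPM) was in the library of mouse 6 of Experiment 2. *Col7a1*, the chain of anchoring fibrils, had -0.87, 3.51 and 5.22 before grafting, and only 2 of 7 TA grafts had reads, 3 at most. Its fitted change of -3.76 ± 0.84 (adjusted p = 0.00309) rests on the value given to a gene without a read.

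The fibrillar chains called lower in TA were so on the deposited scale and mostly not on others. *Col3a1* had 8.94, 9.54 and 10.77 before and 7.11, 8.05 and 8.67 after grafting, without overlap. Its change was -1.87 ± 0.35 (adjusted p = 0.000922), or -0.79 relative to the median of all genes tested, and it was not called with centred values, edgeR or DESeq2. *Col5a2* (-1.20 ± 0.39, adjusted p = 0.0222) and *Col5a1* (-1.23 ± 0.47, adjusted p = 0.0438) lay within 0.2 of that median and were called under no other scaling. The call of *Col5a1* was lost in 9 of the 15 refits that left out 1 library each, 4 grafts and 5 pre-graft libraries, and that of *Col5a2* without the graft of mouse 3 of Experiment 2. *Col5a3* had 5.67, 6.93 and 7.77 before and -0.29, 5.34 and 6.35 after (-2.35 ± 0.68, adjusted p = 0.0125) and was also called under no other scaling. Its lowest graft value, that of mouse 3 of Experiment 2, rests on 1 read, and the next lowest was 4.18, so the size of the change leans on that graft. *Col19a1* had 5.50, 6.62 and 8.12 before and -0.44, 4.37 and 5.98 after, a change of -3.07 ± 0.70 (adjusted p = 0.00349) that was called under each scaling but edgeR (adjusted p = 0.0596).

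Of the type IV chains, *Col4a1* and *Col4a2* had by far the most reads. *Col4a1* had 7.33, 8.22 and 8.94 before and 7.11, 8.37 and 9.34 after grafting in TA, and *Col4a2* had 6.75, 7.63 and 8.37 before and 6.53, 8.31 and 9.45 after. On the deposited scale their changes of 0.11 ± 0.38 and 0.47 ± 0.42 were not called. With centred values they were 1.00 for *Col4a1* and 1.36 for *Col4a2*, and both were called higher. edgeR called *Col4a2* (1.36, adjusted p = 0.0141) and not *Col4a1*. Basement membrane chains took a median of 38.3% of the collagen reads in TA grafts, and fibrillar chains took 43.4%.

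For EOM after against before grafting, 31 members were tested as well. *Col4a2*, *Col8a1* and *Col25a1* were called higher (3 of 31 beside 3.51% of all genes tested) and *Col4a5*, *Col5a1*, *Col6a1*, *Col6a2*, *Col15a1*, *Col16a1*, *Col17a1*, *Col19a1* and *Col20a1* lower (9 of 31 beside 55.8%). With centred values 5 were higher (beside 6.65%) and 3 lower (beside 4.84%), and edgeR called 7 higher (beside 6.93%) and 1 lower (beside 2.90%). DESeq2 called 9 higher (beside 9.13%) and 1 lower (beside 4.17%), and scaling without mitochondrial genes gave 4 higher (beside 5.64%) and 4 lower (beside 7.04%). The calls that held under all 5 scalings were *Col4a2* and *Col8a1* as higher and *Col6a1* as lower, beside *Col25a1*, which passed the filter on low values through 4 grafts alone and so had to differ. The share of members called lower on the deposited scale was below that of all genes, and the median of the members was -0.55 beside -1.48 for all genes tested.

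*Col8a1* had 1.96, 4.14 and 5.43 in EOM before and 4.66, 6.52 and 10.81 in EOM grafts. The change was 3.37 ± 0.74 (adjusted p = 0.00165), or 4.84 relative to the median of all genes. *Col4a2* had 5.69, 6.30 and 7.28 before and 6.39, 7.97 and 8.70 after, a change of 1.38 ± 0.35 (adjusted p = 0.00389). *Col4a1* had 6.69, 7.39 and 8.36 before and 6.53, 8.18 and 9.02 after, and its change of 0.47 ± 0.36 (adjusted p = 0.248) was called as higher with centred values (1.72), without mitochondrial genes, with edgeR (1.65, adjusted p = 0.0033) and with DESeq2. *Col25a1*, a transmembrane collagen, had no read in any of the 8 EOM libraries before grafting and reads in 4 of 7 grafts, 13 at most. Against a floor of 3 reads per library it was at least 2.27-fold higher in the mean of the grafts, and the level it reached was low. The highest value, a log2 RPM of 3.36 in the graft of mouse 5 of Experiment 2, came from 12 reads. It carries much of that mean, so the bound depends on single grafts.

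*Col6a1* had 8.48, 9.03 and 9.26 in EOM before and 4.69, 6.03 and 7.91 in EOM grafts, and the groups did not overlap. The change was -2.55 ± 0.38 (adjusted p = 0.00011) or -1.07 relative to the median of all genes. *Col6a2* had 6.19, 7.10 and 7.34 before and 3.90, 4.65 and 7.84 after, and its change of -1.69 ± 0.50 (adjusted p = 0.0084) was -0.21 relative to that median and called under no other scaling. *Col6a3* had -1.56, 0.84 and 3.24 before and -1.24, 4.19 and 6.0 after, with reads in 4 of 7 grafts. Its change of 2.1 ± 1.21 was not called (adjusted p = 0.13) and was called with edgeR (4.51, adjusted p = 0.0275) and DESeq2.

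Other lower calls in EOM depended on the scale. *Col15a1* had 6.73, 7.70 and 8.27 before and 3.83, 5.00 and 7.24 after (-2.17 ± 0.45, adjusted p = 0.00107), which was -0.69 relative to the median of all genes and was called under 1 other scaling, that without mitochondrial genes. *Col16a1* had 4.26, 4.96 and 5.85 before and -1.09, 1.02 and 4.51 after (-3.87 ± 0.77, adjusted p = 0.000863). *Col19a1* had 3.65, 4.68 and 5.40 before and -1.24, -0.38 and 4.47 after in EOM (-4.05 ± 0.78, adjusted p = 0.000714), with reads in 4 of 7 grafts. *Col16a1* and *Col19a1* were also called lower with centred values and without mitochondrial genes, but not with edgeR or DESeq2. *Col5a1* had 6.41, 6.69 and 7.08 before and -0.95, 4.11 and 7.15 after (-3.46 ± 1.02, adjusted p = 0.00826), and edgeR gave -0.63 (adjusted p = 0.66). With 1 of 7 grafts each above the filter level, the lower calls of *Col20a1* (-2.79 ± 0.75), *Col17a1* (-2.75 ± 0.77), the transmembrane collagen of hemidesmosomes, and *Col4a5* (-2.44 ± 0.78), a minor type IV chain, were made under none of the other 4 scalings.

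EOM grafts differed widely in the interstitial chains. *Col1a1* ran from -1.24 to 11.77 with a median of 4.66, *Col1a2* from 4.90 to 12.33 with a median of 6.84, and *Col3a1* from 4.80 to 12.15 with a median of 8.61. The highest value of each was in the graft of mouse 1 of Experiment 2. Its endothelial, fibroblast and tenocyte marker sums (6549, 4918 and 1117 RPM) were also the highest of the EOM grafts. The highest pericyte and smooth muscle sum of EOM grafts (5120 RPM) was in that of mouse 6 of Experiment 2. None of these 3 chains was called in EOM on the deposited scale (*Col1a1*, 1.00 ± 1.44, *Col1a2*, 0.81 ± 0.81, *Col3a1*, -0.96 ± 0.75), and edgeR called *Col1a1* (4.70, adjusted p = 0.0327) and *Col1a2* (3.40, adjusted p = 0.01) as higher.

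**Figure D3:**
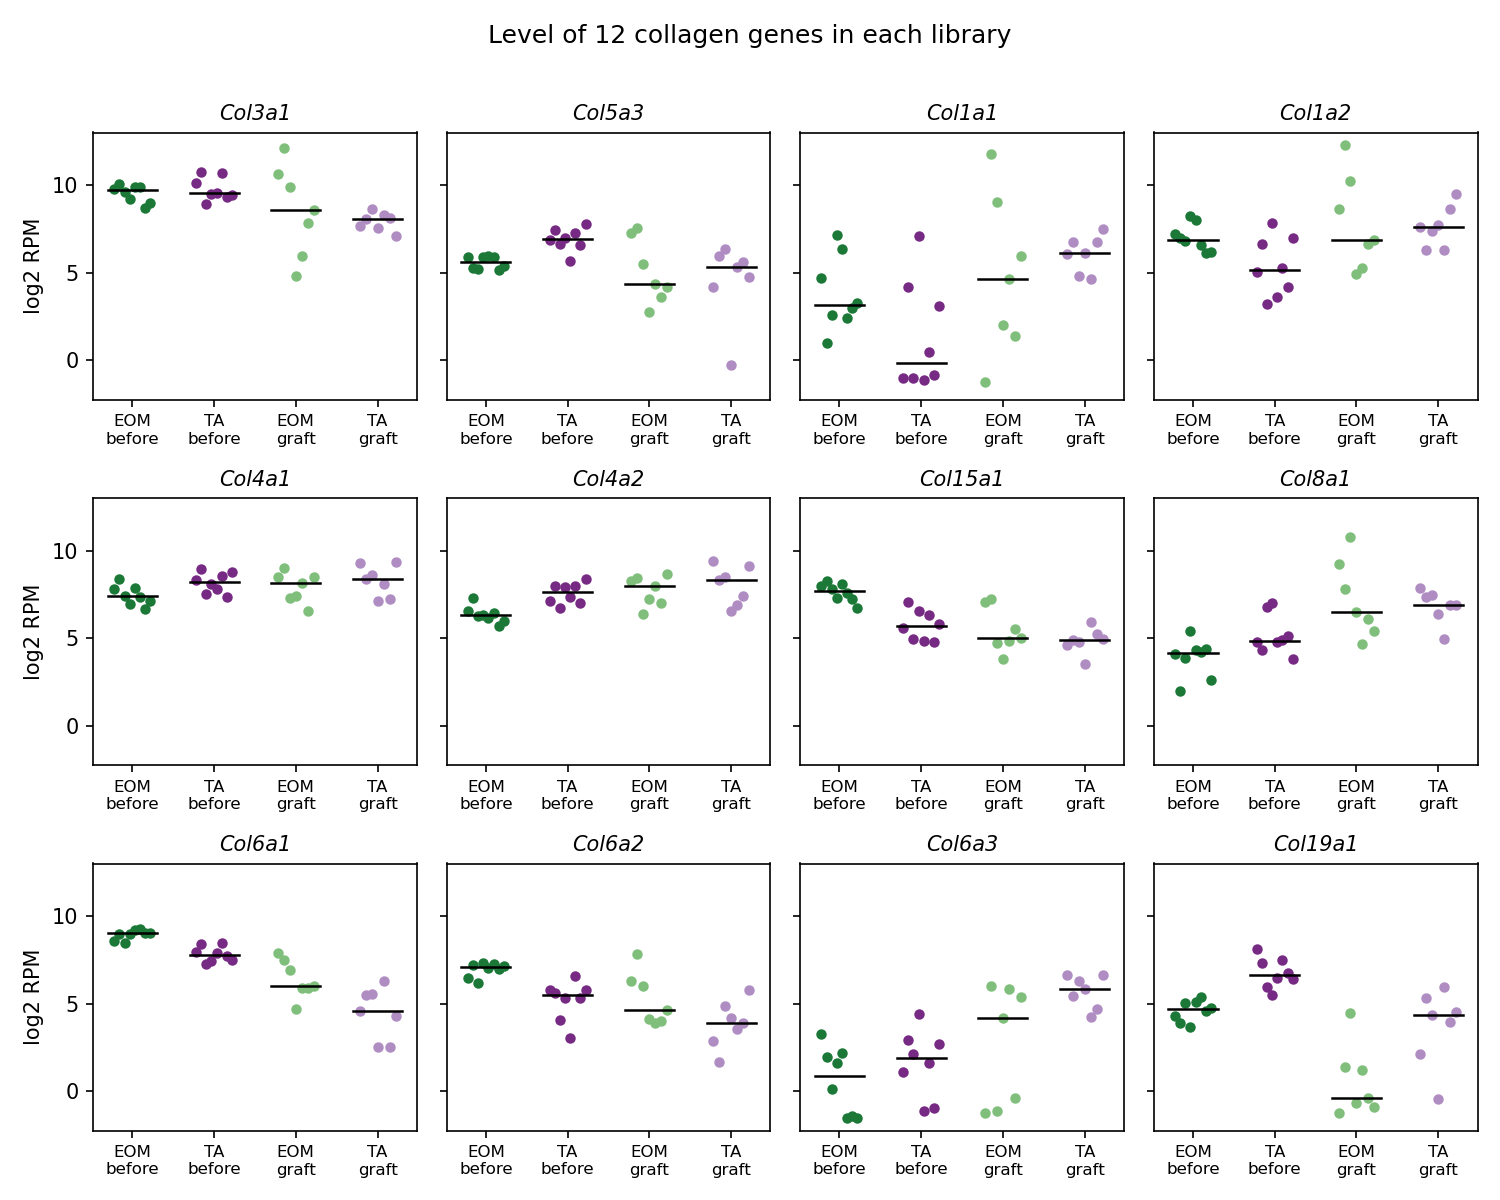
Log2 RPM (y axis) of 12 collagen genes in each of the 30 libraries (points) of EOM and TA before grafting and of EOM and TA grafts, with the median as a line. *Col19a1* separates the muscles before grafting, *Col6a1* is lower in both kinds of graft, and *Col1a1* runs from -1.24 to 11.77 in EOM grafts.

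The medians of most endothelial markers were higher in the grafts, 9 of 10 in EOM, where *Tek* was lower (156 RPM before and 85.3 RPM after), and 10 of 10 in TA. All 10 endothelial markers had reads in each group, and their sum was 231.8 to 6549 RPM with a median of 3556 in EOM grafts and 1424 to 7615 RPM with a median of 4908 in TA grafts, where the medians before grafting were 258 and 485 RPM. The sum of 8 pericyte and smooth muscle markers, all with reads, had medians of 708.8 and 687.5 RPM in EOM and TA before grafting and of 2126 and 2679 RPM in their grafts, and its members went different ways. *Rgs5*, a pericyte gene, had medians of 80.4 RPM before and 1660 RPM after in EOM, and of 289 and 2366 RPM in TA. *Acta2*, the smooth muscle actin that led the list before grafting, was lower after it, with medians of 527 and 162 RPM in EOM and of 304 and 155 RPM in TA, and *Tagln* and *Cspg4* were lower in EOM grafts as well. *Cldn5*, a tight junction gene of endothelium, had medians of 2.89 and 25.8 RPM before and of 785 and 1808 RPM after grafting. The sum of 12 fibroblast markers had medians of 4414 and 3181 RPM before and of 2360 and 3737 RPM after, and its members went different ways. The medians of *Gsn* and *Dpt* were lower in both kinds of graft than before, and that of *Pdgfra* was 0 RPM in both. The median of *Dcn* was 53.5 RPM in EOM before and 216 RPM after, and 0.279 RPM in TA before and 330 RPM after, and the median of *Ly6a* was 25.8 and 701 RPM in EOM and 63.2 and 529 RPM in TA. *Lum* had medians of 0 and 41.4 RPM in TA before and after, and of 13.6 and 3.77 RPM in EOM. Sums of 7 tenocyte markers reached 1117 RPM in EOM grafts and 1065 RPM in TA grafts, of 8 macrophage markers 685 and 56.3 RPM, and of 8 myofibre markers 1418 and 588 RPM. The myofibre sum had medians of 28.3 RPM before and 350 RPM after in EOM, and of 134.8 and 258 RPM in TA. Of the 8 myofibre markers, 7 had a higher median in EOM grafts and 6 in TA grafts, where *Myh1* and *Myh2* were lower. The sum of 8 Schwann cell markers had medians of 553 RPM before and 56.1 RPM after in EOM, and of 20.1 and 7.58 RPM in TA, with *Cdh19* and *Foxd3* at 0 in EOM grafts. The part of these cells in the members called higher or lower across grafting was not tested. In 4 grafts mitochondrial genes held over 50% of the recovered reads.

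Without those 4 grafts, a setting added after the data were seen, 4 members were called higher (beside 4.27% of all genes) and 5 lower (beside 22.9%) in TA, and 4 higher (beside 1.79%) and 5 lower (beside 29.1%) in EOM. *Col6a1*, *Col8a1*, *Col6a3* and *Col1a2* kept their calls in TA, and *Col6a1*, *Col8a1* and *Col4a2* kept theirs in EOM. Experiment 1 held 1 graft of each muscle, so its values have no spread. There the change of *Col6a1* was -3.57 in TA and -0.78 in EOM, and that of *Col8a1* was 3.33 in TA and 5.93 in EOM. With Experiment 2 alone, *Col8a1* was no longer called in TA, where 3 members were called higher (beside 1.59%) and 4 lower (beside 14.5%).

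**Figure D4:**
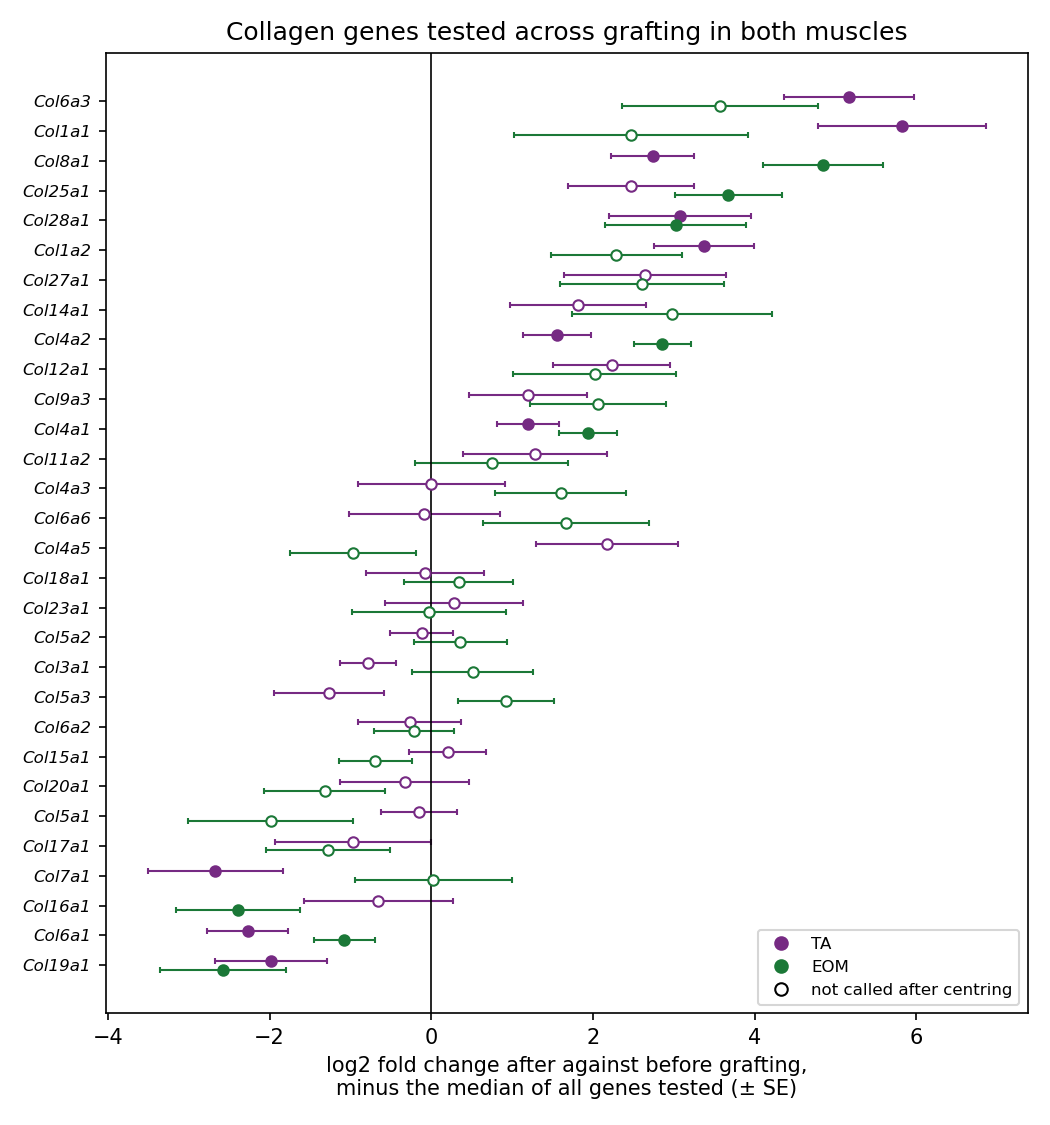
Log2 fold change after against before grafting minus the median of all genes tested (x axis, with the SE of the fold change), for the collagen genes tested in both TA and EOM, filled where called with centred values. *Col8a1*, *Col4a2*, *Col4a1* and *Col28a1* are filled to the right in both muscles, and *Col19a1* and *Col6a1* are filled to the left in both. *Col28a1* passed the filter on low values in TA through 4 grafts alone and so had to differ there. In EOM it was above the filter level in 3 grafts and 1 pre-graft library.

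The ratios of partner chains were also compared across grafting, a comparison added after the fits were seen, with 7 pairs tested in each muscle. *Col6a3* over *Col6a1* rose in both muscles. Its log2 ratio was -6.23 ± 2.02 (SD, n = 8) in TA before and 1.2 ± 1.83 (SD, n = 7) in TA grafts, without overlap, a difference of 7.44 by exact permutation (adjusted p = 0.00109). In EOM it was -8.39 ± 2.04 before and -3.74 ± 3.93 after, a difference of 4.65 by exact permutation (adjusted p = 0.0222). Of these grafts 3 had no read of *Col6a3*, so their ratios rest on the value given to a gene without a read, and the medians were -7.90 before and -1.52 after, a larger difference than that of the means. *Col4a2* over *Col4a1* was -1.11 ± 0.33 in EOM before and -0.20 ± 0.45 after, a difference of 0.91 by exact permutation (adjusted p = 0.00145), and in TA the difference was 0.36 by the same exact test (adjusted p = 0.141). *Col5a3* over *Col5a1* was -1.16 ± 0.38 in EOM before and 1.75 ± 2.14 after, a difference of 2.91 by exact permutation (adjusted p = 0.00109) without overlap. Of these grafts 2 had no read of *Col5a1*, and the medians were -1.16 before and 0.49 after, a smaller difference than that of the means. In TA it was 0.64 ± 0.96 before and -0.48 ± 1.34 after by exact permutation (adjusted p = 0.123). *Col5a2* over *Col5a1* rose in EOM by 2.35 (adjusted p = 0.00109, exact permutation), with medians of 0.65 before and 2.32 after, and *Col6a2* over *Col6a1* by 0.86 (adjusted p = 0.0068, exact permutation). In TA the differences of these 2 ratios were 0.03 and 2.00, and neither passed (adjusted p = 0.910 and 0.104, exact permutation). *Col1a2* over *Col1a1* changed by -2.45 in TA by exact permutation (adjusted p = 0.0196), with no read of *Col1a1* in 4 of the 8 libraries before grafting. *Col5a2* over *Col3a1* passed in neither muscle, with adjusted p of 0.141 in TA and 0.885 in EOM by exact permutation.

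**Figure D5:**
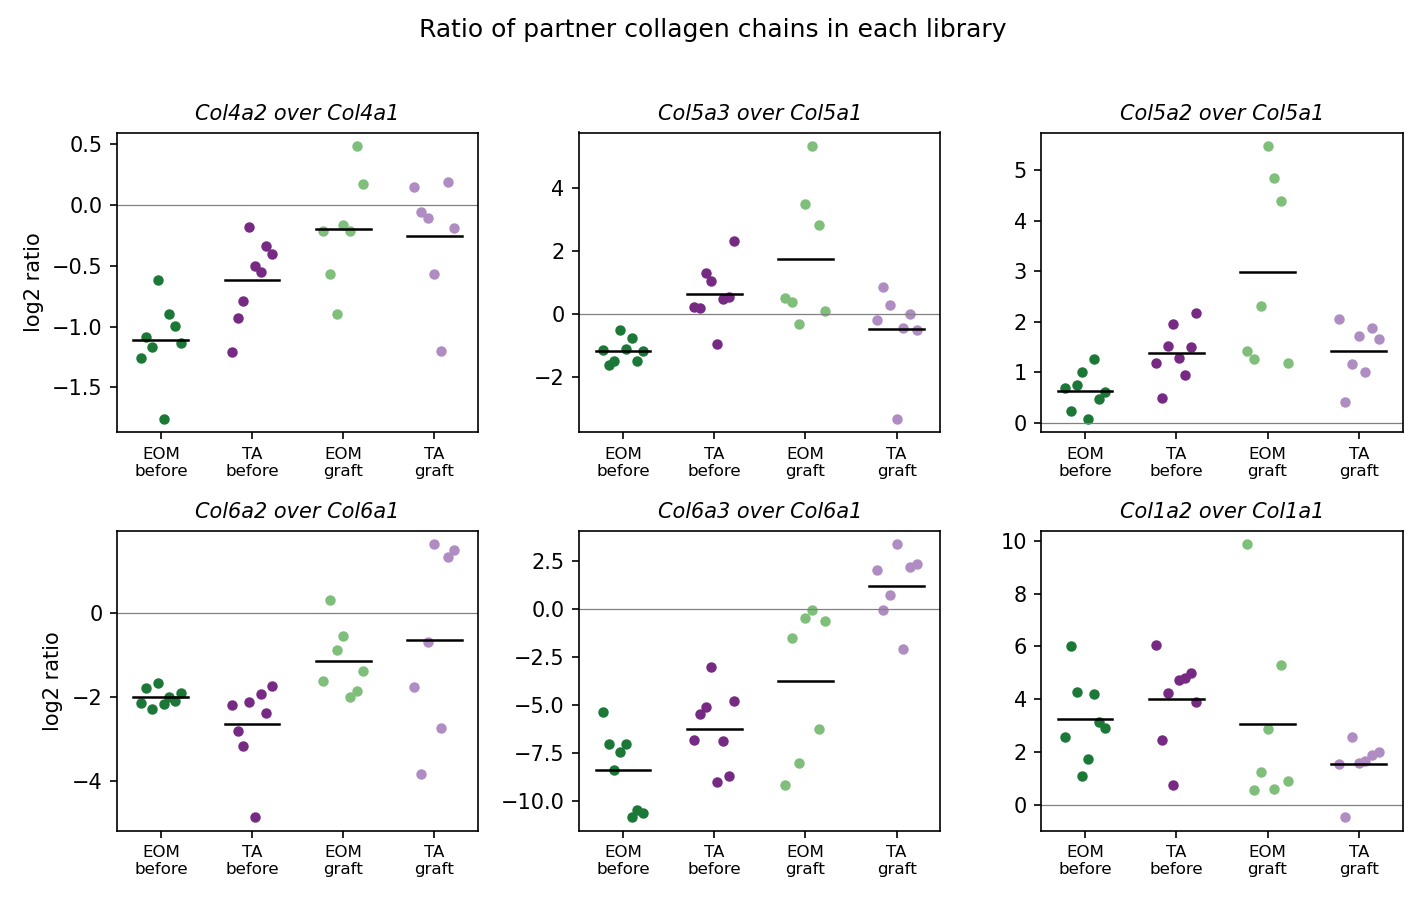
Log2 ratio of partner collagen chains (y axis) in each library (points) of the 4 groups, with the mean as a line and a ratio of 1 as a thin grey line. *Col6a3* over *Col6a1* is below the grey line in every library before grafting and above it in 5 of 7 TA grafts.

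Between TA and EOM grafts, none of 31 members was called by limma, edgeR or DESeq2, and neither was any of the 12377 genes tested by limma (0% called, with 452 genes and 4 members at an unadjusted p under 0.05). Spread among grafts was wide. *Col6a1* had 2.52, 4.61 and 6.33 in TA grafts and 4.69, 6.03 and 7.91 in EOM grafts (-1.93 ± 0.67, adjusted p = 1), and *Col19a1* had -0.44, 4.37 and 5.98 in TA grafts and -1.24, -0.38 and 4.47 in EOM grafts (3.14 ± 1.15, adjusted p = 1). *Col6a3* was 3.01 ± 1.04 higher in TA grafts on the log2 scale (adjusted p = 1). *Col4a2* (0.31 ± 0.51) and *Col15a1* (-0.61 ± 0.64) had no call either. Whether grafting changed EOM and TA by different amounts was tested for 35 members, and limma called none of them (0.0554% of 14428 genes were called higher and 0.152% lower, and 1 member had an unadjusted p under 0.05). edgeR called none, and DESeq2 called *Col8a1* and *Col7a1* as having the higher change in EOM (2 of 35 beside 0.499%) and 0 the other way (beside 0.222%). For *Col7a1* this was a smaller fall, with medians of 3.52 before and 1.81 after in EOM and of 3.51 and -0.81 in TA. Only 2 of 7 TA grafts had reads of it, so the size of its fall in TA rests on the value given to a gene without a read. *Col4a5* had the lowest adjusted p with limma (-3.53 ± 1.17, adjusted p = 0.401).

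Enzymes that make and shape collagen were followed through 3 lists. Of 18 enzymes and chaperones that modify collagen chains, 17 were tested before grafting. *Plod2*, a lysyl hydroxylase of the telopeptides, had 6.25, 7.18 and 7.67 in EOM and 5.20, 5.80 and 6.23 in TA without overlap, and was called lower in TA (-1.33 ± 0.21, adjusted p = 0.000242). No other gene of the list was called, beside 1.26% of all genes tested called higher in TA and 3.31% called lower. *Serpinh1*, the collagen chaperone HSP47, had medians of 7.88 in EOM and 8.0 in TA. Of 10 tested genes of procollagen processing and crosslinking, *Loxl2* and *Loxl1*, which oxidise lysines for crosslinks, were called lower in TA (beside 3.31% of all genes tested). *Loxl2* had 6.42, 6.99 and 7.85 in EOM and 4.20, 5.06 and 6.46 in TA (-1.91 ± 0.30, adjusted p = 0.000222). *Loxl1* had medians of 7.94 in EOM and 6.96 in TA (-1.09 ± 0.23, adjusted p = 0.00377), and its fold change was -0.85 with centred values. None of 11 collagen receptors tested was called before grafting, beside 1.26% of all genes called higher in TA and 3.31% called lower.

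Across grafting the medians of the modifying enzymes lay near those of all genes. In TA 0 of 17 were called higher (beside 3.79% of all genes) and 7 lower (beside 30.9%). The list median was -1.31 beside -1.09 for all genes, and with centred values 2 were lower (beside 5.68%). In EOM 0 of 17 were called higher (beside 3.51% of all genes) and 11 lower (beside 55.8%). The list median was -1.56 beside -1.48. With centred values 1 was higher, *Serpinh1* (beside 6.65%), and 0 lower (beside 4.84%). *Glt25d1*, a collagen galactosyltransferase, was lower in TA (-2.16 ± 0.42, adjusted p = 0.00138) and stayed so under centring and edgeR. *Loxl2* was lower in EOM grafts (-3.66 ± 0.48, adjusted p = 5.1e-05), from a median of 6.99 to one of 3.97, and was called under centring and edgeR as well, while in TA its change of -0.90 ± 0.54 was not called. *Adamts2*, which removes the amino propeptide of fibrillar procollagens, was higher in EOM grafts (2.69 ± 1.13, adjusted p = 0.0434). Its median in EOM before grafting was -1.06, the level of a gene without a read, so the size of this change rests in part on that value. *Bmp1*, which removes the carboxy propeptide, was lower in both (TA, -2.26 ± 0.56, EOM, -2.0 ± 0.53) and edgeR called neither.

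Among the receptors, *Gpr56*, a receptor of type III collagen, was higher in both (TA, 2.92 ± 0.84, adjusted p = 0.0124, EOM, 2.71 ± 1.16, adjusted p = 0.0472) and *Itga1*, the integrin chain that prefers type IV collagen, in TA (1.61 ± 0.58, adjusted p = 0.035). *Calcr*, described as a receptor that binds type V collagen, was lower in both. It had medians of 8.29 before and 4.80 after grafting in TA (-3.66 ± 0.74, adjusted p = 0.00179) and of 8.67 and 6.31 in EOM (-3.11 ± 0.75, adjusted p = 0.00279). *Calcr* is also among the 10 MuSC markers, and the medians of all 10 were lower in the grafts of both muscles. The receptor tyrosine kinases *Ddr2* and *Ddr1* and the uptake receptor *Mrc2* were called lower in both on the deposited scale. Of these 3, edgeR called none. Of 10 receptors tested across grafting in TA, 2 were called higher (beside 3.79% of all genes) and 4 lower (beside 30.9%). Of 11 tested in EOM, 1 was called higher (beside 3.51%) and 4 lower (beside 55.8%). The list median was -0.09 beside -1.09 for all genes in TA, and -0.66 beside -1.48 in EOM.

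Many members had few reads. Not tested in any of the 5 comparisons were *Col2a1*, *Col6a4*, *Col6a5*, *Col8a2*, *Col9a1*, *Col10a1*, *Col22a1* and *Col24a1*. *Col2a1* had 1 read in all 30 libraries, *Col10a1* had 5 and *Col6a5* had 8. *Col6a5* is a chain that can replace *Col6a3*, and *Col8a2* is the partner of *Col8a1*, with up to 114 reads in an EOM graft and no more than 1 read in any library before grafting. *Col4a3*, *Col4a4* and *Col4a6*, the minor chains of type IV collagen, had medians of at most 1.45 log2 RPM in each group. Members with few reads and no call in any main comparison were *Col6a6*, *Col9a2*, *Col9a3*, *Col11a1*, *Col11a2*, *Col12a1*, *Col13a1*, *Col14a1*, *Col23a1*, *Col27a1* and *Col28a1*. Of these, *Col12a1*, the FACIT chain of tendon and fascia, had the highest medians, 2.74 and 2.95 before and 4.07 and 4.11 after grafting in EOM and TA, and DESeq2 called it higher across grafting in both muscles. *Col28a1* was called higher in TA grafts with centred values, without mitochondrial genes, with edgeR and with DESeq2, from 3 reads at most before grafting to 52 at most after it, but it passed the filter on low values through 4 grafts alone and so had to differ.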

How the data were processed

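RNA was amplified from sorted cells by G&T-seq. The authors trimmed reads with Trim Galore (0.4.2 in the submitters' processing notes and 0.4.4 for RNA in the paper's methods). They aligned them with HISAT2 2.1.0 to GRCm38, counted them over genes in SeqMonk without regard to strand and deposited log2 RPM. Total read counts and the percent of reads in genes, exons and mitochondria came from quality reports the authors deposited. Passing libraries were kept, as the study did. Reads were recovered from the steps of the values (99.9886% whole within 0.01 reads), and a gene without a read holds the value of 0.9 reads. Symbols listed again (66 rows) were dropped.

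Genes above a log2 RPM of 1 in at least 4 libraries compared were tested with limma 3.58.1 (R 4.3.3) with a trend, two-sided, and Benjamini-Hochberg adjustment over all genes tested. The study used DESeq. edgeR 4.0.16 (quasi-likelihood) and DESeq2 1.42.0 were run on recovered reads as alternatives, as were centring on the library median, scaling without mitochondrial genes, other filters, log2 of RPM plus 1, all libraries, Experiment 2 alone and leaving out each library. Ratios were tested by exact permutation, two-sided. Scripts were tested on simulated data.

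EOM and TA of a donor come from the same animal, so numbers pair the libraries. The correlation of paired deviations ran from -0.08 to 0.18 over 7 donors before grafting. Each library is a separate mouse within its group, and p-values measure the spread between these libraries. Named with values were members called in any comparison, the 3 members of each class with the highest mean before grafting and the partner chains tested. The members and lists were chosen with earlier results of these data known. Bisulfite libraries were not analysed here.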

Additional observations from a re-analysis of the deposited data

Results flagged for a closer look

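In 84 combinations of a member and a group, the highest and the lowest library were compared with the rest by Dixon's criterion at the 95% level, which chance meets in about 5% of groups. In all, 9 values stood apart, each given here in log2 RPM. Before grafting these were *Col16a1* at -1.14 in TA of mouse 3, *Col17a1* at -0.8689 and *Col5a2* at 6.859 in TA of mouse 1, *Col4a5* at -1.667 in EOM of mouse 2 and *Col7a1* at -1.251 in EOM of mouse 5, all of Experiment 2 and all below the rest of their group. Among the grafts, *Col5a3* was low at -0.2858 in the TA graft of mouse 3 of Experiment 2. In this TA graft mitochondrial genes held over 50% of the recovered reads. High values were those of *Col17a1* at 2.914 in the EOM graft of mouse 4 of Experiment 1, *Col20a1* at 2.096 in the EOM graft of mouse 5 of Experiment 2 and *Col7a1* at 0.5208 in the TA graft of mouse 3 of Experiment 1. The last of these rests on 3 reads, and that of *Col20a1* on 5. The values of *Col16a1* and *Col4a5* are those of a gene without a read. The low values of *Col17a1*, *Col7a1* and *Col5a3* rest on 1 read each. Values with so few reads depend on depth, so the rate of 5% may not hold for them.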

How the results depend on the processing

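Before grafting, the number of members higher in TA was 3 and became 5 with the donor mouse as replicate block (beside 2.0% of all genes), 5 with DESeq2 (beside 2.44%) and 0 with all libraries (beside 0.194%). The setting with all libraries includes a nearly empty EOM library with 302 recovered reads on genes. Leaving out each library gave 3 to 3 higher and 4 to 5 lower. In TA across grafting, the number higher was 4 and became 7 with centring and 9 with DESeq2. The number lower was 7 and became 4 with Experiment 2 alone (beside 14.5%), 4 without mitochondrial genes (beside 7.18%), 3 with centring, 2 with edgeR and 3 with DESeq2. Leaving out each library gave 4 to 5 higher and 5 to 8 lower. In EOM across grafting, the number higher was 3 and became 5 with centring, 7 with edgeR and 9 with DESeq2. The number lower was 9 and became 4 without mitochondrial genes (beside 7.04%), 3 with centring, 1 with edgeR, 1 with DESeq2 and 5 without the 4 grafts over 50% mitochondrial. Leaving out each library gave 2 to 3 higher and 9 to 12 lower. The median of all genes tested was -1.09 in TA and -1.48 in EOM as deposited, -0.30 and -0.41 without mitochondrial genes, -0.19 and -0.23 with centring, -0.08 and -0.08 with edgeR and 0.02 and 0.0034 with DESeq2, and its part in these counts was not tested. For the difference of the changes, limma called 0 and DESeq2 called 2 higher (beside 0.499%). Without those 4 grafts 1 of 34 members was called higher (*Col3a1*), beside 14 of all 14123 genes tested, and 26 of all genes were called lower. This is a single call in a setting added after the data were seen. Of the pairs of chains, 3 passed before grafting, 0 with the donor as replicate block, where a single pair at the smallest p of the exact test has an adjusted p of 0.125 and the 3 differences were 0.48, 0.77 and 1.98 beside 0.50, 0.74 and 1.80, 2 with all libraries, and 1 to 5 when each library was left out, with 1 without TA of mouse 2 or mouse 5 and 5 without TA of mouse 6, all of Experiment 2. The block lost the calls of *Col5a1* in TA and *Col4a5* in EOM and no other. Of 30 calls of single members, 30 held with log2 of RPM plus 1, 19 with centring, 15 with edgeR and 16 with DESeq2, and none changed direction. Members with few reads in grafts limit what could be called.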
